A study of Mus musculus with 29 samples.

Results

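Mice fed a Mediterranean-style diet under 30% calorie restriction (MCR, 4 libraries) were compared with mice fed a low-fat diet under the same 30% restriction (LFCR, 5 libraries), over all genes of their mammary fat pads. These 9 libraries of the series' 29 were chosen by the treatment given in their labels. All 9 came from wild-type C57BL/6N mice that had become obese on a diet with 60% fat and then lost weight on 1 of 4 diets. The other groups, 5 libraries each, are a control-diet group, mice kept obese, and mice that lost weight on an unrestricted low-fat diet (LFD) or on intermittent calorie restriction (ICR). In week 25 every mouse received E0771 cells, a mouse mammary cancer line, in fat pad 4, and the pad sequenced here was the opposite one, number 9. All 9 mice had therefore received cancer cells elsewhere. The labels are mixed: the tissue is given as normal, but the titles begin with the word tumor and the cell type label names mammary cancer. Each title names a different animal code, so n counts animals. The sources used here give no age, body weight, diet composition or hour of collection.

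Mammary fat is mostly white adipose tissue, threaded by epithelial ducts and blood vessels, and a fat pad can hold a lymph node. Adipocytes make fatty acids from sugar: ATP citrate lyase (Acly) and acetyl-CoA carboxylase (Acaca) feed fatty acid synthase (Fasn), Elovl6 lengthens its product, and Scd1 adds a double bond. The circadian clock is a feedback loop in which the proteins of Arntl (BMAL1) and Clock or Npas2 switch on the Per and Cry genes, whose products then block them. The same activators drive Nr1d1 (REV-ERB alpha), which represses Arntl, while Rora activates it.

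Values are normalized read counts, with the deposited log2 scale used for differences and tests. A log2 difference is MCR minus LFCR, so a negative value means less in MCR. Depth in the 9 libraries was 16403903 to 43999483 reads. MCR 2 was the shallowest, and each of the other 8 held at least 32532655 reads. Lymph node RNA was uneven: B cell genes averaged 10.1 or more on the log2 scale in 21 of the 29 libraries and at most 6.59 in the other 8. Of the MCR libraries 3 lacked node RNA and 1, MCR 2, held it, against 2 without (LFCR 1 and LFCR 3) and 3 with it for LFCR. Glycam1, made by the vessels of lymph nodes and also by milk-producing epithelium, had normalized counts of 96.4, 4929, 54.6, 3678 and 6003 in LFCR 1 to 5 and 34.1, 11461, 52.8 and 1.52 in MCR 1 to 4. The model therefore carried each library's Glycam1 level as a covariate, and for the called genes described the difference without it is given too. Sequencing lanes, read from the column names, held both groups in 3 cases (lanes 2, 3 and 6), and MCR 2 was the only one of the 9 in lane 4. Lanes 2, 3 and 6 each held 1 library per group, and a lane difference is 1 MCR value minus 1 LFCR value. Such lane differences are on the deposited scale, without the covariate, and carry no error.

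Adipocyte genes, the defining markers of the labelled tissue, were abundant in all 9 libraries. Adiponectin (Adipoq) had counts of 113190, 65328, 77627, 57397 and 51970 in LFCR 1 to 5 and 68801, 33002, 93337 and 67986 in MCR 1 to 4, with the lowest value in MCR 2. The 25 mature adipocyte genes averaged 13.7 on the log2 scale in MCR 2 and 14.3 to 14.9 in the other 8 libraries. Epithelial markers were present in all 9: Krt8, a luminal keratin, had counts of 2263, 2543, 3159.5, 4521 and 3741 in LFCR 1 to 5 and 4344, 5366, 3689.8 and 5426 in MCR 1 to 4. Skeletal muscle genes were uneven, averaging 9.59 in LFCR 5 and 8.32 in MCR 3 against 5.73 to 7.02 in the other 7. In bulk tissue, fewer cells of a type and less RNA per cell cannot be told apart.

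Transcripts of the 3 fatty acid enzymes Elovl6, Fasn and Scd1 were abundant in both groups, and none passed the test between the diets. Elovl6 (chr3:129532355-129638495), the elongase acting on the product of fatty acid synthase, had normalized counts of 51420.2, 105956, 36886, 70728 and 33858 in LFCR 1 to 5 and 56326, 14862, 30113 and 6829 in MCR 1 to 4. MCR 1 lay within the LFCR range, MCR 3 just below it, and MCR 2 and MCR 4 well below it. The log2 difference was -1.27 ± 1.00 (SE; adjusted p = 0.499, limma with Benjamini-Hochberg adjustment over 19386 genes). Fasn (chr11:120805846-120824547) had counts of 585990, 1096910, 705991, 834849 and 508880 in LFCR 1 to 5 and 787471, 245120, 518654 and 174806 in MCR 1 to 4. Here MCR 1 and MCR 3 were inside the LFCR range and MCR 2 and MCR 4 below it, with a log2 difference of -0.77 ± 0.87 (adjusted p = 0.658). Scd1 (chr19:44394455-44407879), the main desaturase of adipocytes, had counts of 4283230, 3652650, 2662750, 3556700 and 1983420 in LFCR 1 to 5 and 3001170, 959877, 2921210 and 1439800 in MCR 1 to 4, again with MCR 2 and MCR 4 lowest, and a log2 difference of -0.88 ± 0.50 (adjusted p = 0.345). An exact two-sided permutation test over the 126 ways to divide 9 libraries into 4 and 5, without a covariate, gave p = 0.0794 for Elovl6, 0.111 for Fasn and 0.143 for Scd1. The smallest p this design allows is 0.0159, and the 3 genes were chosen from earlier results of these data.

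**Figure D1:**
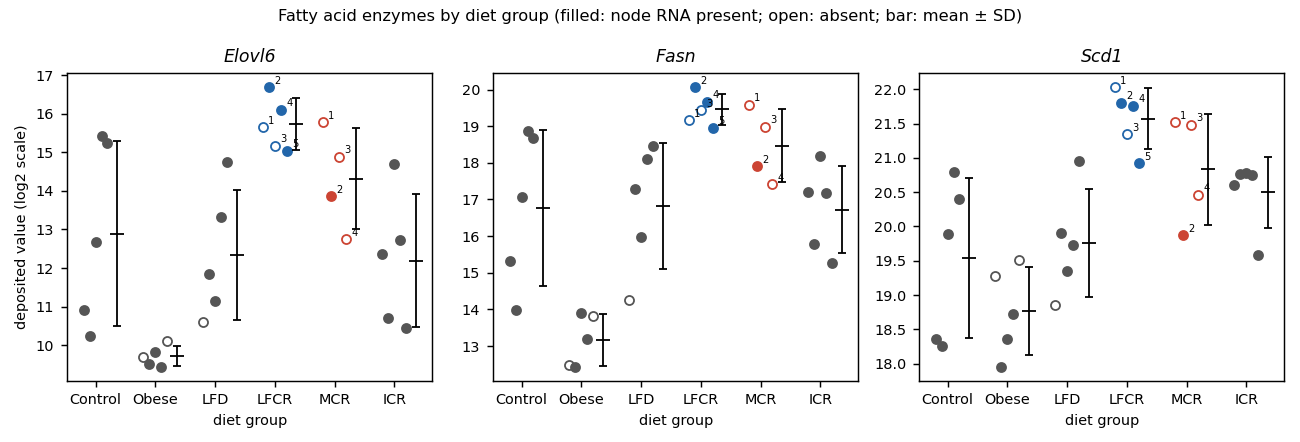
Deposited log2 values of Elovl6, Fasn and Scd1 (y axis) in the 6 diet groups (x axis). Each point is 1 library, filled where lymph node RNA was present, with replicate numbers for LFCR and MCR, and bars give the mean ± SD. For all 3 genes MCR 2 and MCR 4 sit below the 5 LFCR points.

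Among the other groups, Elovl6 counts had a lowest, median and highest value of 669, 793 and 1071 in obese mice, 1528, 3675 and 27521 in LFD, 1359.8, 5222 and 26816 in ICR and 1185, 6471 and 43640.5 in controls. Each of the 5 LFCR libraries, MCR 1 and MCR 3 stood above all of the obese, LFD and ICR libraries, while MCR 4 was inside the LFD, ICR and control ranges. Of the low MCR libraries, MCR 4 had no node RNA and MCR 2 had the highest Glycam1 count of the 9. Within lanes, the Elovl6 difference was -3.37 in lane 2, -0.29 in lane 3 and 0.13 in lane 6. Without MCR 2 the Elovl6 difference was -0.83, the Fasn difference -0.16 and the Scd1 difference -0.53.

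The wider fatty acid synthesis list had no member called. Of its 20 genes, 0 passed, against 0.098% of all genes tested, and 17 of the differences were below 0, against 50.7% of all genes. The median log2 difference was -0.58, beside -0.0043 over all genes, and -0.42 without the covariate. It was -0.24 without MCR 2. Acly had a difference of -0.84 ± 0.78, Acaca -0.77 ± 0.70, the malic enzyme Me1 -0.82 ± 0.75, Acss2, which activates acetate, -0.73 ± 0.73, and the lipogenic regulator Thrsp -0.87 ± 0.77. Acly counts were 72507, 172329, 102917, 123987 and 52957 in LFCR 1 to 5 and 145161, 34118, 68094 and 19772 in MCR 1 to 4. MCR 1 had the second highest Acly count of the 9 libraries and MCR 4 the lowest, so the spread within MCR was wider than the gap between the groups. The transcription factors of the pathway had smaller differences, with Srebf1 at -0.38 ± 0.33 and Mlxipl (ChREBP) -0.59 ± 0.42. G6pdx, which supplies NADPH for synthesis, was the 1 member with an unadjusted p under 0.05, at -0.56 ± 0.19 (adjusted p = 0.138). Over the 20 members the differences ran from -1.06 ± 0.60 for Acacb, a mitochondrial relative of Acaca, to 0.19, and Slc25a1, the citrate carrier, had -0.70 ± 0.61.

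The 18 desaturases and elongases tested had a median of -0.40, with 0 called and differences from -1.27 (Elovl6) to 0.47 (Scd4). Differences for the polyunsaturated branch were -0.43 ± 0.24 for Fads1, -0.37 ± 0.30 for Fads2 and -0.13 ± 0.12 for Elovl5. Scd2 had counts of 18184, 25303, 17169.8, 33368 and 10814 in LFCR 1 to 5 and 48573, 9177, 22766 and 7235 in MCR 1 to 4, with MCR 1 highest and MCR 4 lowest of all 9, and a difference of -0.21 ± 0.52. Elovl3, an elongase of very long saturated chains, had -0.84 ± 0.81. Scd3 (-0.49 ± 0.30) and Scd4 (0.47 ± 0.18) were measured at low counts, at most 111 and 43.2. Scd1 to Scd4 are close copies, and their values are uncertain where reads could be assigned to more than 1 of them.

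Across all genes, 19 of 19386 tested (0.098%) passed an adjusted p of 0.05 with the Glycam1 covariate: 3 rose in MCR (0.0155%) and 16 fell (0.0825%). Without the covariate 0 genes passed (0%), the smallest adjusted p was 0.0729, and 1028 genes (5.3%) had an unadjusted p under 0.05, against 3611 (18.6%) with it. With Ccl21a, a chemokine gene of lymph node stroma, as the covariate in place of Glycam1, 13 passed, all of them among the 19. The calls also rested on single libraries. Leaving out MCR 1 or LFCR 1 gave 0 calls, MCR 4 gave 1, and MCR 3 or LFCR 2 gave 2, all of them among the 19. Leaving out LFCR 3 or LFCR 5 gave 6 calls, 5 of them among the 19, MCR 2 gave 8 with 3 among the 19, and LFCR 4 gave 29 with 18 among the 19. Adding the lane as a term gave 0. All 19 kept their sign in every alternative in which they were measured, but they were chosen on these same libraries. Of the 19, 3 are predicted or clone genes and are not described further.

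The genes that fell include signalling and junction proteins. Zbtb16 (chr9:48654297-48836222), a zinc finger transcription factor (PLZF) known as a glucocorticoid-induced gene, had the largest fall among the called genes. Its counts were 11171, 3620.2, 3558, 2789 and 3486 in LFCR 1 to 5 and 979, 520, 2148 and 2394 in MCR 1 to 4. All 4 MCR values were below all 5 LFCR values, and LFCR 1 stood far above the rest. The log2 difference was -1.94 ± 0.40 (adjusted p = 0.0494), or 0.26 of the LFCR level, and -1.72 without the covariate (adjusted p = 0.25). Without LFCR 1, and with the covariate, it was -1.59 (adjusted p = 0.253). Lane by lane the difference was -0.22, -0.72 and -3.48 in lanes 2, 3 and 6, and the last of these is the lane that holds LFCR 1.

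Dock9 (chr14:121542046-121797837), an exchange factor that activates the small GTPase Cdc42, had the smallest adjusted p. Its counts were 14038, 11459, 11577, 8452 and 8378 in LFCR 1 to 5 and 7125, 5085, 7497 and 7942 in MCR 1 to 4, with no overlap between the groups. It fell by 0.79 ± 0.12 on the log2 scale (adjusted p = 0.00989), and the difference was -0.63 without the covariate (adjusted p = 0.34). Prex2 (chr1:10993465-11303681), an exchange factor for Rac, had counts of 5381, 2495, 3651, 2264 and 2215 in LFCR 1 to 5 and 2548, 1162, 2083 and 2757 in MCR 1 to 4. These overlapped, and the fall of 0.89 ± 0.18 (adjusted p = 0.0483) was seen after the adjustment for Glycam1, with -0.56 before it. Shroom4 (chrX:6399854-6637448), of a family of actin-binding proteins, fell by 0.67 ± 0.12 (adjusted p = 0.0294). Its groups overlapped too, and the difference was -0.49 without the covariate.

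St3gal4 (chr9:35046576-35119268), a sialyltransferase that caps sugar chains on glycoproteins, had nearly level counts within MCR. The normalized counts were 1981, 2283, 1897, 1593 and 1736 in LFCR 1 to 5 and 1166, 1158, 1214 and 1189 in MCR 1 to 4. The 4 MCR libraries lay within 1158 to 1214, all below the lowest LFCR library, with and without node RNA alike. The fall was 0.68 ± 0.13 (adjusted p = 0.0483), and the difference was -0.66 without the covariate (adjusted p = 0.0729). Tmem57, which encodes the endoplasmic reticulum protein macoilin, had counts of 5042, 3829.9, 3667, 3374 and 3329 in LFCR 1 to 5 and 2440.2, 2428, 2692 and 2813 in MCR 1 to 4. It fell by 0.64 ± 0.11 (adjusted p = 0.0294), again with no overlap, and the difference was -0.55 without the covariate.

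**Figure D2:**
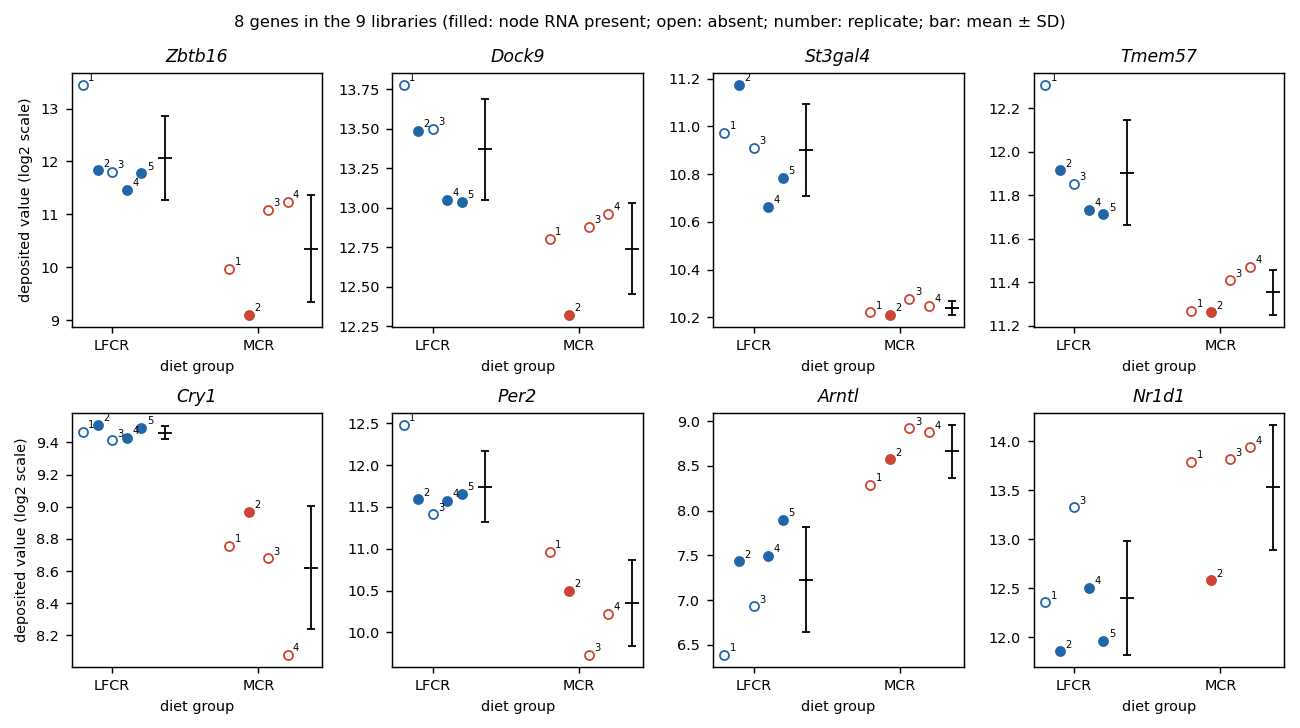
Deposited log2 values (y axis) of 8 genes in the 5 LFCR and 4 MCR libraries (x axis), numbered by replicate, with filled points where node RNA was present and bars for the mean ± SD. The MCR points of St3gal4 and the LFCR points of Cry1 form narrow bands, and Zbtb16 and Per2 show LFCR 1 apart from the other LFCR libraries.

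Of the genes with roles at cell junctions and the cell surface, Gja5 (chr3:96904693-97077416), the gap junction protein connexin 40 of arterial endothelium, had counts of 308, 222, 437, 174 and 206 in LFCR 1 to 5 and 223, 108, 182 and 230.4 in MCR 1 to 4 and a fall of 0.75 ± 0.15 (adjusted p = 0.0494). Tjp1 (chr7:65296165-65527781), the tight junction scaffold ZO-1, had counts of 10570.2, 6187, 9992, 6315 and 6125 in LFCR 1 to 5 and 7300, 4023, 7846 and 8625 in MCR 1 to 4 and a fall of 0.47 ± 0.09 (adjusted p = 0.0483). Both overlapped between the groups on the deposited scale, and without the covariate their differences were -0.46 and -0.19. Acvr1 (chr2:58388644-58567157), a type I receptor for bone morphogenetic proteins, fell by 0.50 ± 0.08 (adjusted p = 0.0162), from counts of 1517, 902, 1253, 851 and 883 in LFCR 1 to 5 and 831, 631, 958 and 989.7 in MCR 1 to 4. Its groups overlapped as well, and the difference was -0.32 without the covariate (adjusted p = 0.96). Lrp12 (chr15:39870589-39943994), of the low-density lipoprotein receptor family, fell by 0.80 ± 0.16 (adjusted p = 0.0494), without overlap. The fall of Vps45 (chr3:95999832-96058466), a vesicle fusion protein, was 0.42 ± 0.09 (adjusted p = 0.0494). Without the covariate the differences were -0.68 for Lrp12 and -0.35 for Vps45.

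C2cd2 and Acnat2 also passed and lie outside the naming rule. C2cd2 (chr16:97855209-97962598) fell by 0.38 ± 0.08 (adjusted p = 0.0494), with -0.29 without the covariate. Acnat2 (chr4:49379840-49408151), an acyl-CoA amino acid N-acyltransferase, had counts of 32.1, 22.7, 7.95, 13.5 and 19.4 in LFCR 1 to 5 and 1.71, 1.82, 1.04 and 3.03 in MCR 1 to 4. All 4 MCR counts were below every LFCR count, with a fitted difference of -1.02 ± 0.20 (adjusted p = 0.0483), and -1.06 without the covariate. The scale compresses values this low.

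The named genes that rose did so by small amounts. Nupl2 (chr5:24164963-24184013), a nuclear pore component, had counts of 230.2, 257, 277, 285 and 251 in LFCR 1 to 5 and 330, 389, 341 and 350.1 in MCR 1 to 4, without overlap, and rose by 0.43 ± 0.08 (adjusted p = 0.0294). Ndor1 (chr2:25244821-25256022), a diflavin reductase that supplies electrons for iron-sulfur cluster assembly, rose by 0.43 ± 0.08 (adjusted p = 0.0483). Its counts were 1009, 1444, 1152, 1535 and 1609 in LFCR 1 to 5 and 1408, 2111, 1581 and 1559.5 in MCR 1 to 4, and these overlapped. Without the covariate the differences were 0.40 for Nupl2 and 0.30 for Ndor1.

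The next 10 genes with positive differences by p did not pass. The largest differences among them were 1.45 ± 0.33 for the clock gene Arntl (adjusted p = 0.0731), 1.05 ± 0.24 for the interferon-induced gene Ifi27l2a (adjusted p = 0.0795) and 0.91 ± 0.20 for Bbc3, which encodes the cell death protein PUMA (adjusted p = 0.0676). Ifi27l2a had counts of 5086, 3893, 5967, 4527 and 4139 in LFCR 1 to 5 and 8076, 7129.7, 13736 and 17263 in MCR 1 to 4, so its groups did not overlap. Those of Bbc3 were 80.3, 252, 175, 223 and 202 in LFCR 1 to 5 and 459, 268, 312 and 302 in MCR 1 to 4, also without overlap. H3f3b, a gene for histone H3.3, had a difference of 0.52 ± 0.12, Dcaf15, a substrate receptor of a ubiquitin ligase, 0.69 ± 0.15, and the splicing factor Hnrnpl 0.32 ± 0.08. For Uspl1, Hps3, Nob1 and Mrgbp the differences were 0.43, 0.43, 0.41 and 0.34. In all, 358 genes lay between an adjusted p of 0.05 and 0.10, these 10 included.

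**Figure D3:**
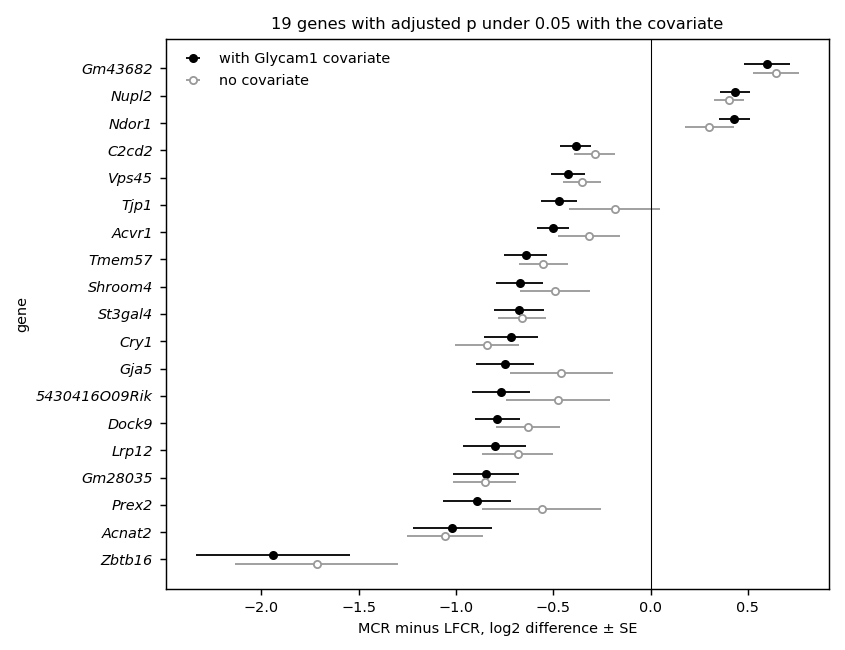
MCR minus LFCR log2 difference ± SE (x axis) of the 19 called genes (y axis), with the Glycam1 covariate (black) and without it (open grey). Zbtb16 lies farthest from 0, and the open points of Tjp1, Gja5 and Prex2 lie nearer 0 than the black ones.

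On the deposited values the groups did not overlap for 12 of the 19 called genes, beside 328 of all genes tested (1.69%). After the Glycam1 adjustment the groups were apart for all 19, beside 9.16% of all genes. The 19 were chosen by the same difference in the same libraries, so these counts only describe them. Within lanes that hold both groups, 19 of 19 kept their sign in lane 3 and in lane 6 and 13 in lane 2. The lanes hold libraries used for the calls, so these counts too only describe the 19. In lane 2 LFCR 4 carried node RNA and MCR 4 did not, and its part in the signs was not tested. The slope on Glycam1, fitted within the 6 groups over the 29 libraries, was below 0 for 14 of the 19. That is, within groups their fitted values were lower where Glycam1 was higher. The share of such slopes over all genes was not counted.

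Of the 20 circadian clock genes 1 was called, against 0.098% of all genes, and differences ran in both directions. Activator genes and Nr1d1 had positive differences, and most Per, Cry and output genes negative ones. With an unadjusted p under 0.05 were 13 of 20 genes, against 18.6% of all genes: 5 were positive, against 8.7%, and 8 negative, against 9.92%. The groups did not overlap on the deposited values for 6 of 20, against 1.69%. Among these, Arntl was higher in MCR (0.758% of all genes were), and Cry1, Per2, Per3 and Usp2 were lower (0.934%). Clock genes with an unadjusted p under 0.05 numbered 12 without the covariate (5.3% of all genes), 13 without MCR 2 (13.4%), 12 without LFCR 1 (10.1%) and 9 without both (6.25%), and in none of these 4 was a member called.

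Cry1 (chr10:85131700-85185064), whose protein blocks the BMAL1 and CLOCK pair, was the clock gene that fell. Its counts were 681, 702, 655, 662 and 692 in LFCR 1 to 5 and 407, 474, 383 and 244 in MCR 1 to 4. The LFCR libraries lay within a narrow band and all 4 MCR libraries below it, with or without node RNA. The fall was 0.72 ± 0.14 on the log2 scale (adjusted p = 0.0483), and the difference was -0.84 without the covariate (adjusted p = 0.0812). It was -1.35, -0.73 and -0.71 in lanes 2, 3 and 6. Without LFCR 1 the difference was -0.67 (adjusted p = 0.242), and without MCR 2 it was -0.75 (adjusted p = 0.107). Among the other groups the lowest, median and highest Cry1 counts were 329, 432 and 494 in obese mice, 229.7, 299.7 and 479.6 in LFD, 509.7, 620.2 and 708 in ICR and 362, 443 and 478 in controls. LFCR and ICR thus held the high values, and the MCR values fell within the range spanned by the obese, LFD and control libraries.

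The 250 bases before the start of Cry1 and of Per3 are shown because they carry the recognition letters of clock factors before genes with lower counts in every MCR library. They are from RefSeq for GRCm38.p6, chr10:85185055-85185304 for Cry1 and chr4:151044666-151044915 for Per3, both on the minus strand and written 5′ to 3′ toward the gene. Capitals in Cry1 mark CACGTG, the E-box bound by BMAL1 and CLOCK, and AACGTG, the reverse complement of the variant CACGTT. In Per3 capitals mark TTATGTAA, a D-box of the kind bound by DBP, TEF and HLF.
Cry1: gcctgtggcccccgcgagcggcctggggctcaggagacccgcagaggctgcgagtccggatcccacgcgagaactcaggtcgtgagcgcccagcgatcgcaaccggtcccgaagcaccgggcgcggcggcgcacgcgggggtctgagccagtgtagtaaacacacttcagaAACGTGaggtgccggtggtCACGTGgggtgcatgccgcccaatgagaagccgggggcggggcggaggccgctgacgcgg
Per3: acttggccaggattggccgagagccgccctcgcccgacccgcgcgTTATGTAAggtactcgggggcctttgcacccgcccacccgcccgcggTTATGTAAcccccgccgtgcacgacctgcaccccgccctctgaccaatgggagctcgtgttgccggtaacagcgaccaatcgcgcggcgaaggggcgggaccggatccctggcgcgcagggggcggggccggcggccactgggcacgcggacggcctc
The E-box of Cry1 lies at positions -60 to -55 and the variant at -79 to -74, counted back from the start. Of the 20 clock genes 17 had a promoter entry. Searched on both strands of the same 250 bases, CACGTG was found in 5 of the 17 (Bhlhe41, Ciart, Cry1, Per1 and Tef) and in 6.02% of all 32851 promoter windows. CACGTT was found in 3 (Cry1, Cry2 and Nr1d1) and in 3.85% of windows. TTATGTAA, found in 1 of the 17 (Per3, with 2 copies), occurs in 0.819% of windows. AGGTCA, the core of the element read by REV-ERB receptors, was found in 4 (Clock, Nfil3, Nr1d2 and Per1) and in 14.0% of windows. The clock figures count genes with a match in any of their windows, while the percentages count single windows, so they are unlike measures. A match describes letters and not binding. Of the 5 genes with CACGTG, Cry1, Per1, Tef and Ciart had negative differences, and Bhlhe41 a positive one. For Ciart it was -0.42 ± 0.38 and for Bhlhe41 0.22 ± 0.29, with errors close in size to the differences.

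Among the activators, Arntl (chr7:113207465-113314126) had counts of 58.9, 147, 96.4, 154 and 212 in LFCR 1 to 5 and 286, 354, 458 and 443 in MCR 1 to 4. Every MCR library was above every LFCR library, and the log2 difference was 1.45 ± 0.33 (adjusted p = 0.0731). It was 1.43 without the covariate, and the single-library differences in lanes 2, 3 and 6 were 1.38, 1.99 and 1.90. Lowest, median and highest Arntl counts elsewhere were 321, 410 and 670 in obese mice and 248, 390 and 506 in LFD. ICR had 95.8, 226 and 261, and controls had 243, 652 and 761. The controls, on 1 diet, thus ran from below all MCR counts to above them. Npas2, which can stand in for Clock as the partner of BMAL1, had counts of 30.8, 20.5, 57.6, 20.7 and 24.7 in LFCR 1 to 5 and 146, 31.0, 423 and 219.8 in MCR 1 to 4. MCR 1, MCR 3 and MCR 4 were above all LFCR libraries, and MCR 2, with node RNA, was within their range (difference 1.34 ± 0.42, adjusted p = 0.119). Control counts of Npas2 ran from 36.7 to 226. Clock itself had a difference of 0.22 ± 0.08 (adjusted p = 0.178).

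Of the repressors, Per2 (chr1:91415982-91459324) had counts of 5699, 3057, 2701, 3022 and 3196 in LFCR 1 to 5 and 1969.5, 1419, 822 and 1171 in MCR 1 to 4, without overlap. Its difference was -1.36 ± 0.36 (adjusted p = 0.088), and the single-library differences in lanes 2, 3 and 6 were -1.35, -1.68 and -1.52. Lowest, median and highest Per2 counts elsewhere were 1099, 1572 and 2475 in obese mice and 1022, 1636 and 2059 in LFD. ICR had 2780, 3623 and 4884, and controls had 540, 812 and 3117. The highest control count was inside the LFCR range. Per3 had counts of 6572, 6095, 7325, 5929.6 and 5921 in LFCR 1 to 5 and 5247, 3364, 2932 and 3043 in MCR 1 to 4 and a difference of -0.85 ± 0.33 (adjusted p = 0.179). The groups did not overlap, and MCR 1 was the MCR library closest to LFCR. Control counts of Per3 ran from 855 to 4409. Per1 had -0.29 ± 0.24 and Cry2 -0.21 ± 0.20, smaller than the others. Nr1d1, which represses Arntl, had counts of 5219, 3683, 10249, 5800.3 and 3965 in LFCR 1 to 5 and 14166, 6099, 14418 and 15676 in MCR 1 to 4 and a positive difference of 0.86 ± 0.28 (adjusted p = 0.125), and MCR 2 was again the lowest MCR library. Its relative Nr1d2 had -0.43 ± 0.18, with the opposite sign. Bhlhe40 (DEC1), a further repressor, had 0.79 ± 0.26.

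Rora and the clock outputs were mostly negative. Rora had a difference of -0.68 ± 0.17 (adjusted p = 0.0854). The D-box activators Hlf, Dbp and Tef had -0.92 ± 0.33, -0.64 ± 0.42 and -0.57 ± 0.29, and their MCR 1 counts of 3419, 4460 and 10533 lay within the LFCR ranges while those of MCR 2, MCR 3 and MCR 4 lay below. Usp2, a deubiquitinase under clock control, had counts of 1371, 1268, 684, 904 and 815 in LFCR 1 to 5 and 601, 365, 398 and 321 in MCR 1 to 4, without overlap, and a difference of -1.24 ± 0.35 (adjusted p = 0.0949). Nfil3, which competes at D-boxes, had -0.07 ± 0.14.

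**Figure D4:**
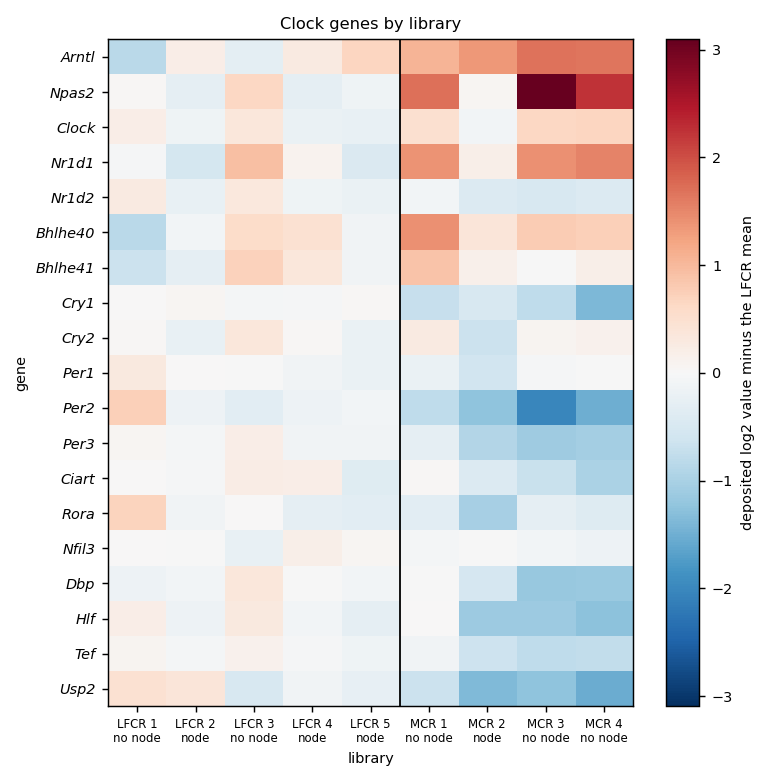
Deposited log2 value minus the LFCR mean (colour) for clock genes (rows) in the 9 libraries (columns), red above and blue below that mean. Arntl is red and Cry1, Per2, Per3 and Usp2 are blue in all 4 MCR columns, while Hlf, Dbp and Tef are near white in MCR 1.

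Fasting and glucocorticoid-responsive genes had 1 of 21 tested called (Zbtb16), against 0.098% of all genes, 18 of 21 differences below 0, against 50.7% of all genes, and a median of -0.37. This list rested in part on LFCR 1: its mean log2 value was 11.7 there and 10.2 to 10.9 in the other 8 libraries. Tsc22d3 (GILZ), a classic glucocorticoid target, had counts of 15792, 7099, 3006, 4776 and 5866 in LFCR 1 to 5 and 2734, 4156, 1894 and 1699 in MCR 1 to 4, with LFCR 1 highest, and a difference of -1.20 ± 0.45 (adjusted p = 0.168). Fkbp5, a co-chaperone of the glucocorticoid receptor, had counts of 8782, 3087, 782, 3091 and 2174 in LFCR 1 to 5 and 1068, 1361, 1504 and 1298 in MCR 1 to 4. LFCR 1 was again highest and LFCR 3 the lowest of all 9. Hif3a counted 1227 in LFCR 1 and at most 138 in the other 8. Without LFCR 1 and MCR 2 the list's median was -0.12. Pdk4, which blocks entry of pyruvate into the citrate cycle, had -0.99 ± 0.37 (adjusted p = 0.166), and the kinase gene Sgk1 -0.66 ± 0.22 (adjusted p = 0.139).

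Lists of adipocyte lipid handling had negative medians and 0 genes called. The medians were -0.47 for 25 mature adipocyte genes, -0.50 for 16 of fatty acid uptake, -0.42 for 20 of lipolysis and the lipid droplet, -0.40 for 18 of triglyceride assembly and -0.28 for 26 of the citrate cycle, all 26 below 0. Without the covariate the first was -0.20. Without MCR 2 it was -0.31. Cidec, a lipid droplet protein, had counts of 94013, 45131, 43313, 37036 and 40929.8 in LFCR 1 to 5 and 25146, 20813, 36464 and 46928 in MCR 1 to 4, with LFCR 1 far above the rest, and a difference of -0.85 ± 0.28 (adjusted p = 0.138). Pck1, which makes glycerol for triglycerides, had counts of 98496, 66478, 77386, 63941 and 54878 in LFCR 1 to 5 and 26624, 30156, 44748 and 57707 in MCR 1 to 4. Of the MCR libraries only MCR 4 overlapped the LFCR range, and the difference was -0.97 ± 0.36 (adjusted p = 0.171). Acsl1, which activates fatty acids, had counts of 142340, 112863, 110337, 98721 and 94997 in LFCR 1 to 5 and 69982, 48626, 83304 and 68250.4 in MCR 1 to 4, without overlap, and -0.83 ± 0.35 (adjusted p = 0.213).

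Leptin (Lep), a hormone that tracks fat mass, had counts of 39549, 10128, 20015, 16464 and 14479.8 in LFCR 1 to 5 and 24824, 7396, 15019 and 25886 in MCR 1 to 4, overlapping across the groups, and a difference of -0.54 ± 0.49 (adjusted p = 0.56). Adipoq had -0.45 ± 0.22 (adjusted p = 0.28), and -0.19 without the covariate. Mest and Sfrp5, linked to fat cell expansion, had wide errors, at -0.79 ± 0.69 and -0.82 ± 0.65. Ucp1, the heat-producing uncoupler of brown and beige fat, was at counts of 4.02, 48.6, 39.7, 51.2 and 11.5 in LFCR 1 to 5 and 34.1, 34.7, 7.25 and 3.03 in MCR 1 to 4, with a difference of -0.02 ± 1.21. At these low and uneven counts a difference was not detectable.

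Endothelial genes had a median of -0.32 with 0 of 16 called. With an unadjusted p under 0.05 and a negative sign were 9 of 16, against 9.92% of all genes, and 1 was positive at that p, against 8.7%. Differences of 3 of the 16 were above 0, the highest 0.39. The median without the covariate was -0.11, with 9 of 16 differences below 0. Flt1, a receptor for vascular growth factors, had counts of 7611, 4956, 6780.1, 4502 and 4092 in LFCR 1 to 5 and 5425, 2352, 5640.4 and 5264 in MCR 1 to 4 and a difference of -0.56 ± 0.13 (adjusted p = 0.0799). Gpihbp1, which holds lipoprotein lipase on capillaries, had -0.75 ± 0.20 (adjusted p = 0.0875), and the receptor Kdr -0.39 ± 0.12 (adjusted p = 0.108). Without the covariate Flt1, Gpihbp1 and Kdr had -0.30, -0.47 and -0.17, each at an adjusted p of 0.989. MCR 2 was the lowest of the 9 libraries for all 3. Without MCR 2 the median of the list was -0.20.

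The 19 macrophage genes had a median of 0.06 with 0 called, and Adgre1 (F4/80), their standard marker, had counts of 992, 472, 444, 646 and 767 in LFCR 1 to 5 and 575, 536, 960.3 and 909 in MCR 1 to 4 and a difference of 0.02 ± 0.27 (adjusted p = 0.981). Its sign turned in 8 of 30 alternatives. The 21 cytokine and acute-phase genes tested had a median of 0.05 and 0 called, but the groups did not overlap for 3 of them, all higher in MCR, against 0.758% of all genes. These were the chemokine genes Ccl2, Ccl4 and Ccl7. Ccl2, which attracts monocytes, had counts of 33.5, 62.7, 52.7, 61.1 and 73.2 in LFCR 1 to 5 and 92.9, 102, 129 and 515 in MCR 1 to 4, highest in MCR 4, and a difference of 1.05 ± 0.49 (adjusted p = 0.254). Ccl7 had counts of 36.1, 48.6, 61.6, 53.0 and 65.2 in LFCR 1 to 5 and 85.3, 93.0, 107 and 399 in MCR 1 to 4, also highest in MCR 4, and 0.90 ± 0.40 (adjusted p = 0.235). Ccl4 counts were low, at most 23.5, with 0.82 ± 0.23 (adjusted p = 0.0925).

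The immune lists of the node had opposite signs with and without the covariate. The B cell median was 0.32 over 13 genes with it and -1.71 without, and the T and NK cell median 0.55 over 20 genes and -0.73. Cd3e, of the T cell receptor complex, had counts of 53.5, 945, 50.7, 584 and 1157 in LFCR 1 to 5 and 52.9, 2045, 81.8 and 61.4 in MCR 1 to 4, which divided by node RNA and not by diet. Ribosomal protein genes were positive in 44 of 44 cases, with a median of 0.30, 35 of them at an unadjusted p under 0.05, against 8.7% of all genes, and 0 called. Their median was 0.14 without the covariate, with 0 at that p. Their mean log2 value was lowest in LFCR 1 (12.6) and highest in MCR 2 (13.6). Luminal epithelial genes had a median of 0.31 over 24 genes and basal ones -0.21 over 13, both with 0 called, and Epcam had 0.31 ± 0.24. Collagen and matrix genes had a median of -0.19 with the covariate and 0.11 without. Cholesterol synthesis genes had a median of -0.02. Of all 51 lists, 49 had 0 members called.

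**Figure D5:**
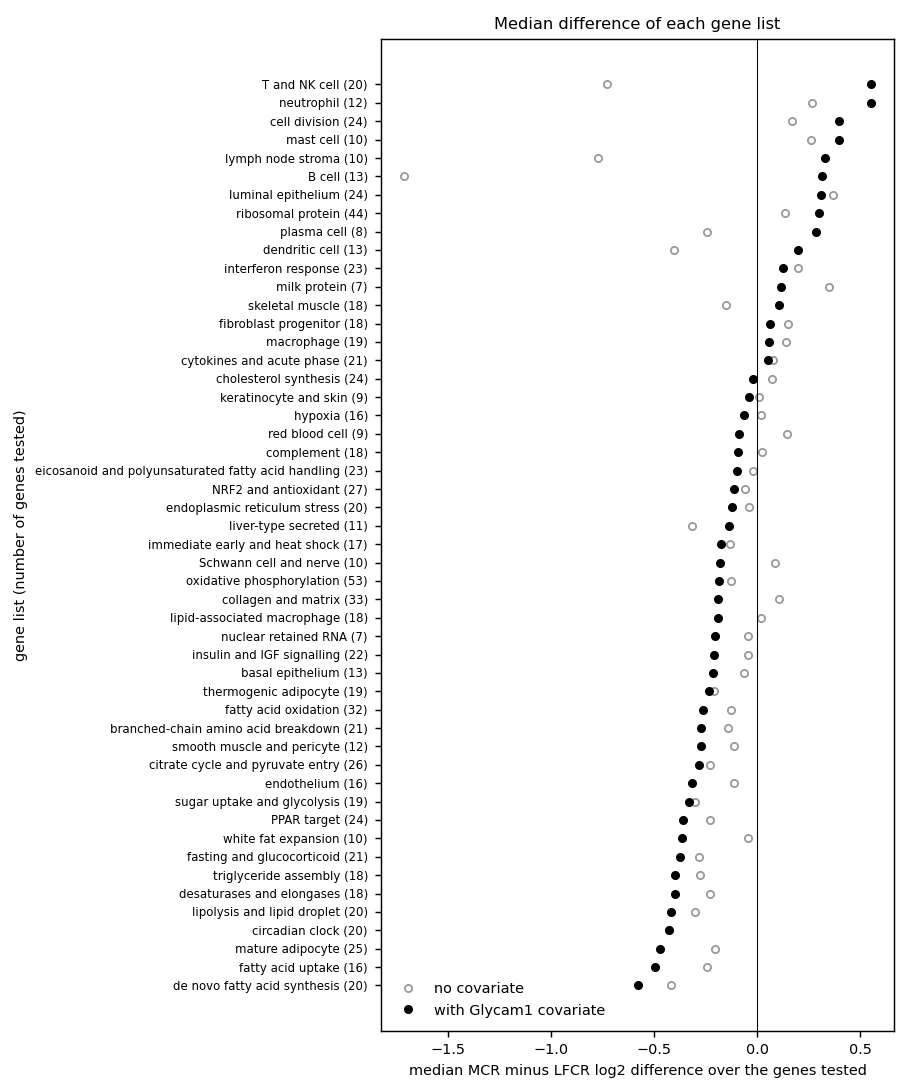
Median MCR minus LFCR log2 difference (x axis) over the genes tested in each of 50 lists (y axis, number of genes in parentheses), with the Glycam1 covariate (black) and without it (open grey). The B cell, T and NK cell and lymph node stroma medians lie on opposite sides of 0 in the 2 fits, while fatty acid synthesis and the clock lie below 0 in both.

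The MCR libraries were also set against the 5 libraries of intermittent restriction (ICR). That contrast shares the MCR libraries with the main one, so the values are given side by side only, with limma's adjusted p in parentheses. It called 5.55% of genes. All 5 ICR libraries held node RNA, and of the MCR libraries only MCR 2 did. The values therefore lean on the Glycam1 covariate, and this contrast was not fitted without it. For Zbtb16 the MCR minus ICR log2 difference was -2.54 (0.00417) and for Dock9 -0.56 (0.0142), both lower in MCR. Of the 19 genes called against LFCR, 14 had an adjusted p under 0.05 against ICR, beside 5.55% of all genes. St3gal4, at -0.28 (0.207), and Lrp12, at -0.26 (0.373), were among those that did not pass. For Cry1 it was -0.46 (0.0655), for Per2 -1.43 (0.0337), for Arntl 0.99 (0.0909) and for Nr1d1 1.18 (0.0255). The lipogenic genes had the other sign: Elovl6 was at 2.41 (0.175) and Fasn at 2.17 (0.159) against ICR, and neither passed. Scd1 was at 0.07 (0.958).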

How the data were processed

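RNA-seq libraries of mammary fat pads were compared by diet group, taken from the treatment label, with animals matched to columns by the code in each title. The labels' protocols name TRIzol extraction, a stranded total RNA kit and paired 76-base reads on a HiSeq 2000. TopHat2 2.0.7, HTSeq 0.5.3p9, DESeq2 and the mm10 build come from the submitters' processing notes. The deposited log2 values run from 3.75 to 22.0 over 30818 genes. Inverting a variance-stabilising transform in closed form gave whole reads for 100% of values in every library, within 0.01, so that transform is inferred from the values. It compresses low values, so log2 differences understate the change of low genes. Normalized counts printed are these inverted values, and depth is the sum of recovered reads, without molecular identifiers.

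Genes with a normalized count of 10 or more in at least 4 libraries were kept, leaving out Glycam1, the covariate (19386 genes). With limma 3.58.1 in R 4.3.3 (statmod 1.5.0), the 6 group means and the centred Glycam1 log2 value were fitted over all 29 libraries, with trend and robust moderation. P-values were adjusted by Benjamini-Hochberg over all genes tested, at 0.05. Every adjusted p is from limma with this adjustment unless stated otherwise. The fit and the inversion were tested on simulated data. Count models were not used on these log2 values, and limma voom on the recovered reads was an alternative. Alternatives covered the covariate, filter, scale, lane, weights and each library left out. Over 16 pairs of libraries within a group, r was 0.927 to 0.993, and no pair matched within sampling noise.

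The groups, markers and gene lists were chosen with earlier results of these data known. Named genes are the 12 largest rises and 12 largest falls among called genes with a mean count of 50 or more, places left over going to the smallest p. The rule adds the fatty acid synthesis, desaturase and elongase genes, given singly or by range, up to 3 members of the other lists by p, and Lep, Adipoq and Adgre1. Genes outside this rule were chosen after their values were seen, among them C2cd2, Acnat2, Ccl2, Ccl7 and members of the clock and glucocorticoid lists beyond the first 3. Gene positions are from GENCODE vM21 (GRCm38), where 118 of 120 symbols matched. The strand setting of the counting and its annotation were not given in the sources. Some members of the lists are counted in them but not reported singly here.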

Additional observations from a re-analysis of the deposited data

Results flagged for a closer look

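Over 60 genes and both groups, 120 sets of 4 or 5 libraries were checked for a library far from the others, and 12 held one. Chance gives about 1 in 20 for independent sets. These sets come from the same 9 libraries and are not independent, so that rate is no measure for the 12. Of the 12, 7 are MCR 2, 4 are LFCR 1 and 1 is MCR 1. Log2 values are given, each with the nearest library of its group. MCR 2 was the lowest MCR library for 5 genes: the endothelial genes Flt1, at 11.22 (nearest 12.37), Kdr, at 11.96 (nearest 12.87), and Gpihbp1, at 10.17 (nearest 11.34), and the clock genes Nr1d1, at 12.58 (nearest 13.79), and Rora, at 11.21 (nearest 11.84). It was the highest for Mrgbp, at 9.92 (nearest 9.46), and Hps3, at 11.19 (nearest 10.51). LFCR 1 was the highest LFCR library for Zbtb16, at 13.45 (nearest 11.83), Per2, at 12.48 (nearest 11.65), and Cidec, at 16.52 (nearest 15.46), and the lowest for Hnrnpl, at 12.52 (nearest 12.78). MCR 1 was the highest MCR library for Hlf, at 11.75 (nearest 10.60). MCR 2 is also the shallowest of the 9 libraries and the MCR library with node RNA. Their part in these values was not tested.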

How the results depend on the processing

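The count of 19 called genes depended on the processing. With limma it was 0 without a node covariate, with the 9 libraries alone, with libraries without node RNA or with node RNA alone, and with lane as a term. It was 8 with node presence as a term in place of Glycam1, 5 without a filter on low values, 4 with voom on recovered reads, 2 after quantile normalization and 46 with array weights. A further luminal epithelial covariate gave 4 and a skeletal muscle one 5. Leaving out 1 library gave 0 to 29. Of alternatives chosen after seeing the data, leaving out the 5 libraries of lane 4 gave 0, only lanes 2, 3 and 6 with lane as a term gave 1, which was not among the 19, and leaving out MCR 2 and LFCR 1 together gave 0 (smallest adjusted p 0.296, 6.25% of genes at an unadjusted p under 0.05). Where the count was 0, 1028 to 4070 genes had an unadjusted p under 0.05. The cause was not tested. In the other 6 alternatives the count was 13 to 28. Of the 60 genes recomputed under the alternatives, Adgre1 alone changed sign, from 0.016 to -0.19 with node libraries alone, -0.072 with lane as a term, -0.036 with array weights, -0.027 without lane 4 and -0.22 to 0.15 with 1 library left out. Elovl6, Fasn and Scd1 stayed negative and not called in all 30 alternatives, with Scd1 nearest 0 at -0.090 after quantile normalization. Other genes named were not recomputed singly. No pairing of animals was possible because the labels give no replicate numbers shared between the groups. The fits with lane as a term compare libraries within lanes. Depth limits MCR 2 most, with 16403903 reads.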
